A study of Mus musculus with 12 samples.

Results

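The response of wild-type (WT) bone marrow-derived dendritic cells (BMDCs) to lipopolysaccharide (LPS) was followed across all genes with enough counts for a test, 13072 of 32190 gene symbols in the deposited table, whether higher or lower and whatever their function. BMDCs are antigen-presenting cells grown from mouse bone marrow, and the genes were compared between 4 of the series' 12 RNA-seq libraries. The LPS group was 2 libraries of cells with the WT genotype label given 200 ng/ml LPS for 12 h, and the unstimulated group was 2 libraries of WT cells without LPS. A further 4 BMDC libraries, labelled Pde5 knockout, with and without the same LPS, entered the fit to estimate the spread and are compared with the WT ones. A time of 9 days is on every BMDC label. The sources used here give no strain, age, sex or growth factor. Nor do they tell whether both libraries of a group stem from different mice, so p-values measure library-to-library spread, which could be technical only.

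LPS is the outer membrane glycolipid of Gram-negative bacteria and is read by Toll-like receptor 4 (TLR4) with MD-2 and CD14. From the plasma membrane the receptor signals through MyD88 to NF-kB and MAP kinases, which drive inflammatory cytokines, and from endosomes through TRIF to IRF3, which starts type I interferon. In dendritic cells (DCs) both arms feed into maturation: the cell stops sampling its surroundings, loads peptides onto MHC molecules, displays costimulatory ligands and moves to lymph nodes through CCR7.

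The WT libraries held 17843114 and 17330375 counts with LPS and 16881873 and 16122941 without. Values per library below are CPM, counts per 1000000 of the library size scaled by TMM, a factor that evens out libraries of different composition. The first principal component of all BMDC libraries held 63.4% of the variance and placed the WT LPS libraries at 34.4 and 24.9 and the unstimulated WT libraries at -66.6 and -76.6. The unstimulated libraries labelled Pde5 knockout lay between them, at 19.1 and -12.2, while their LPS libraries lay beside the WT ones, at 36.3 and 40.7. The labels name the cell type only as immune cells, so marker lists were read first. Of 16 core DC markers 4 rose and 6 fell (median log2 fold change -0.33, with 2 lower without LPS replicate 1 or unstimulated replicate 2). Among those that fell were Itgax, the CD11c chain, which stood at 92.2 and 85.8 CPM with LPS and 176 and 146 CPM without (log2 fold change -0.85), and Kmo, an enzyme of tryptophan breakdown, at 17.8 and 30.4 CPM with LPS and 69.4 and 86.5 CPM without (log2 fold change -1.69). Zbtb46, a transcription factor of conventional DCs, rose and stood at 268 and 255 CPM with LPS and 125 and 113 CPM without. Flt3, the receptor for the growth factor of conventional DCs, stood at 477 and 479.9 CPM with LPS and 429 and 372 CPM without. It did not pass (log2 fold change 0.26, adjusted p = 0.084), except without unstimulated replicate 1 (adjusted p = 0.039). The 15 tested T and NK cell markers together came to 87.5 and 87.2 CPM with LPS and 84.6 and 71.0 CPM without. Of these Cd247, Cd8a, Gzmb and Tbx21 rose (log2 fold changes 2.63, 1.79, 2.91 and 2.16) and Cd28 fell (-2.38). The T cell receptor chain Cd3e stood at 0.594 and 0.305 CPM with LPS and 0.774 and 0.394 CPM without. The 10 B cell markers came to 592 and 541 CPM with LPS and 387 and 412 CPM without. Of this list only Spib, which DCs also express, was called higher and only Ighm lower, and Cd79a, a chain of the B cell receptor, stood at 1.07 and 0.915 CPM with LPS and 1.33 and 1.01 CPM without. The 14 fibroblast and endothelial markers came to 208 and 212 CPM with LPS and 132 and 139.8 CPM without. Of these Kdr rose and Vwf and Pecam1 fell, with a higher count of 3 without unstimulated replicate 1. The collagen gene Col1a1 stood at 10.3 and 12.1 CPM with LPS and 11.4 and 7.59 CPM without. Macrophage genes were well expressed in every library, with 3885 and 3007 CPM over 23 tested markers with LPS and 4492 and 4594 CPM without. Without LPS replicate 1, Kmo (adjusted p = 0.083) and Cd28 (adjusted p = 0.062) did not pass. Without unstimulated replicate 2, Kmo (adjusted p = 0.086) did not pass.

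LPS changed a large share of what was measured. In edgeR's quasi-likelihood test with Benjamini-Hochberg adjustment over all genes, 4910 genes passed an adjusted p of 0.05 (37.6%), 2609 of them higher with LPS (20.0%) and 2301 lower (17.6%). Changes of more than 2-fold were about as frequent upward as downward, with 958 genes higher (7.33%) and 963 lower (7.37%), but the largest were mostly increases. More than 8-fold, 183 genes rose and 74 fell, and more than 32-fold 52 rose and 12 fell. Genes that rose by more than 2-fold held 17.6 and 16.9% of the counts of the LPS libraries, against 7.83 and 6.79% in the unstimulated ones. Those that fell by more than 2-fold held 1.80 and 2.06% with LPS, against 5.37 and 6.50% without. The libraries of the groups did not overlap for 9281 genes (71.0%), so separation of 2 against 2 libraries by itself was common. Many genes given with values below were picked by a rule that asked for no overlap. Its mention with those genes therefore adds no support.

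The balance of directions depended on the scaling. With TMM the median log2 fold change of all tested genes was -0.024 and 53.1% of the called genes were higher. With library size alone the median was -0.23, and 1689 genes were higher and 3728 lower, so 31.2% of calls were increases. All 3990 genes called in both had the same direction. Leaving out 1 WT library, which leaves its group with 1, gave 2676 calls without LPS replicate 1, 3226 without LPS replicate 2, 4100 without unstimulated replicate 1 and 2915 without unstimulated replicate 2. Counts within gene lists are to be read beside the shares over all tested genes, 20.0% higher and 17.6% lower. These counts moved between fits as well. Where a count of 2 or more changed by over 1.5 times without 1 WT library, or one of 3 or more with library size alone, the values are given with the list.

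**Figure D1:**
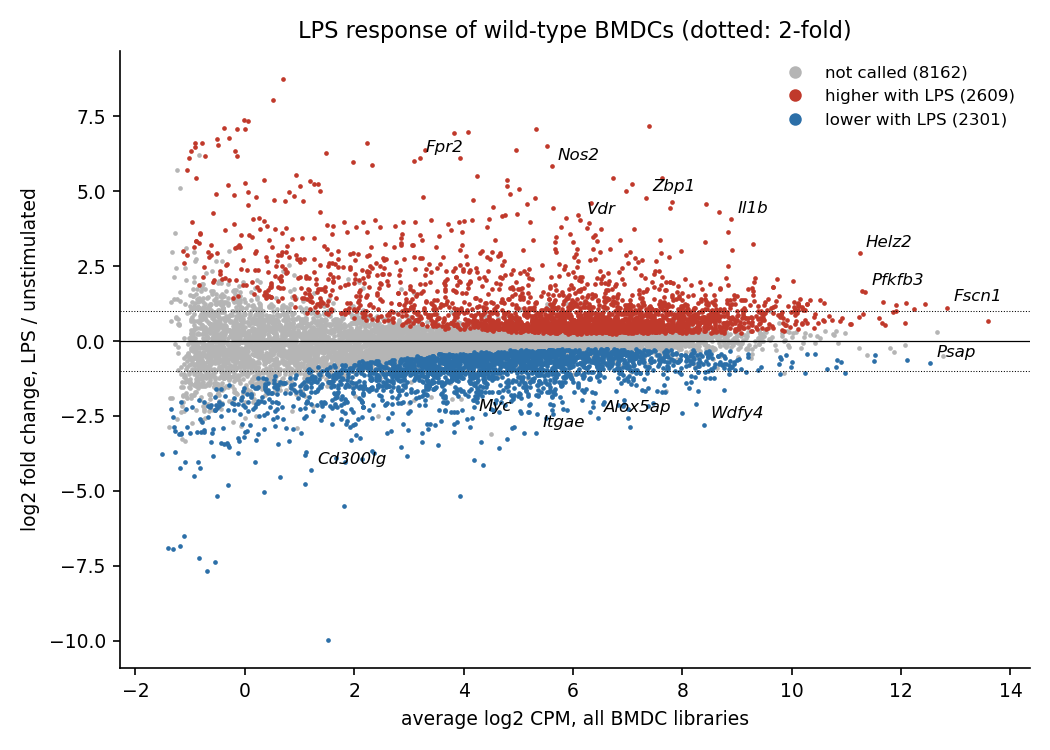
Log2 fold change of LPS against unstimulated WT BMDCs (y axis) against the average log2 CPM over all BMDC libraries (x axis) for the 13072 tested genes, with the 2609 called higher in red, the 2301 called lower in blue and the others in grey. Beyond 8-fold there are 183 increases and 74 decreases.

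On the CPM scale, which does not correct for transcript length, the 10 largest gains among called genes included the cytoskeletal genes Actb, Fscn1 and Myo1g, the migration receptor Ccr7 and the class I genes H2-K1 and H2-D1, and the 10 largest losses included Eef1a1 and Eef2 of translation, Psap and Lyz2 of lysosomes and the class II genes H2-Aa and H2-Ab1. Fscn1, the actin-bundling protein fascin of mature DC dendrites, stood at 7983 and 9932 CPM in the LPS libraries, against 4393 and 3879.5 CPM in the unstimulated ones (log2 fold change 1.11, SE 0.17, adjusted p = 0.0016). Myo1g, a membrane-bound myosin of leukocytes, had 4141 and 4163 CPM in the LPS libraries, against 1933 and 1413 CPM in the unstimulated ones (log2 fold change 1.31, SE 0.18, adjusted p = 0.0011). Both LPS libraries lay above both unstimulated libraries for each of these genes. Helz2, an interferon-induced helicase-like coactivator, had 3069 and 2642 CPM in the LPS libraries, against 406 and 343 CPM in the unstimulated ones (log2 fold change 2.93, SE 0.23, adjusted p = 2.8e-04), the largest fold among the 10 genes that gained the most CPM. On the other side, Psap, the precursor of the saposins that help degrade sphingolipids in lysosomes, had 5327 and 5152 CPM in the LPS libraries, against 8429.6 and 9053 CPM in the unstimulated ones (log2 fold change -0.74, SE 0.20, adjusted p = 0.019). Eef1a1, the elongation factor that brings tRNAs to the ribosome, had 3624 and 3816 CPM in the LPS libraries, against 5436 and 6160.3 CPM in the unstimulated ones (log2 fold change -0.64, adjusted p = 0.011). Mpeg1, the pore-forming perforin-2 of phagocytes, had 1746 and 1394 CPM in the LPS libraries, against 2877 and 2854 CPM in the unstimulated ones (log2 fold change -0.87, adjusted p = 0.0053). Both LPS libraries lay below both unstimulated libraries in these genes as well. Without LPS replicate 1, Psap (adjusted p = 0.092) and Eef1a1 (adjusted p = 0.086) did not pass. Without LPS replicate 2, Psap (adjusted p = 0.098) and Eef1a1 (adjusted p = 0.056) did not pass. Without unstimulated replicate 2, Psap (adjusted p = 0.067) did not pass.

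No gene was switched off by the same rule that found 12 switched on, namely under 1 CPM in both libraries of one group and over 10 CPM in both of the other. Besides Saa3, an acute-phase apolipoprotein, Iigp1, an immunity-related GTPase, and members of the Slfn, Oas, Ifi200, guanylate-binding and MHC class Ib families, they were Fpr2, Gstt1, Nos2 and Wfdc9. Fpr2, a formyl peptide receptor that guides phagocytes to bacterial and host peptides, had 10.1 and 10.1 CPM in the LPS libraries, against 0 and 0.281 CPM in the unstimulated ones (log2 fold change 6.10, SE 0.58, adjusted p = 3.8e-04). Nos2, the inducible nitric oxide synthase, had 24.4 and 24.6 CPM in the LPS libraries, against 0.553 and 0.281 CPM in the unstimulated ones (log2 fold change 5.85, SE 0.45, adjusted p = 3.4e-04). Wfdc9, a whey acidic protein-type protease inhibitor gene that overlaps its neighbour Wfdc10, had 12.8 and 11.6 CPM in the LPS libraries, against 0.111 and 0.169 CPM in the unstimulated ones (log2 fold change 6.38, SE 0.44, adjusted p = 2.8e-04).

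Cytosolic sensors of nucleic acids and bacterial products rose more often than they fell, while Toll-like receptors and C-type lectins went both ways. Among 20 tested cytosolic nucleic acid and NOD-like sensors 10 rose and 3 fell (median log2 fold change 0.64, with 1 lower without LPS replicate 1). Among 12 Toll-like receptors 3 rose and 3 fell (median 0.34). Among 15 C-type lectins 5 rose and 6 fell (median 0.21, at -0.072 without unstimulated replicate 1, with 3 higher without LPS replicate 1, and 3 lower without LPS replicate 2). Zbp1, a sensor of Z-form nucleic acids, had 324 and 216 CPM in the LPS libraries, against 8.51 and 11.0 CPM in the unstimulated ones (log2 fold change 4.79, SE 0.36, adjusted p = 3.4e-04). Nod1, a receptor for bacterial peptidoglycan fragments, had 39.6 and 33.3 CPM in the LPS libraries, against 4.59 and 4.61 CPM in the unstimulated ones (log2 fold change 2.98, SE 0.30, adjusted p = 4.7e-04). Ddx60, an RNA helicase that aids RIG-I-like receptors, had 56.5 and 37.0 CPM in the LPS libraries, against 0.718 and 1.86 CPM in the unstimulated ones (log2 fold change 5.18, SE 0.47, adjusted p = 5.0e-04). The LPS libraries were all above the unstimulated ones in these sensors, with LPS replicate 1 the higher in each. Tlr11, a receptor for Toxoplasma profilin, had 4.51 and 3.11 CPM in the LPS libraries, against 22.8 and 29.2 CPM in the unstimulated ones (log2 fold change -2.77, SE 0.39, adjusted p = 0.0016). Tlr3, the receptor for double-stranded RNA, had 12.7 and 8.11 CPM in the LPS libraries, against 45.4 and 39.8 CPM in the unstimulated ones (log2 fold change -2.03, adjusted p = 0.0011). Tlr9, the receptor for unmethylated CpG DNA, and Tlr1, a partner of Tlr2, were higher with log2 fold changes of 0.70 and 0.78. None of these 4 receptors overlapped between the groups. Tlr4 itself, which reads LPS, stood at 22.9 and 15.5 CPM in the LPS libraries, against 23.3 and 27.3 CPM in the unstimulated ones, and did not pass (log2 fold change -0.40, SE 0.22, adjusted p = 0.19).

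Lectin and Fc receptors also went both ways. Clec4e, the Mincle receptor for mycobacterial glycolipids and damaged cells, had 117 and 91.8 CPM in the LPS libraries, against 19.5 and 28.0 CPM in the unstimulated ones (log2 fold change 2.14, SE 0.22, adjusted p = 5.2e-04). Ly75, the uptake receptor DEC-205, had 766 and 736 CPM in the LPS libraries, against 367 and 230.00 CPM in the unstimulated ones (log2 fold change 1.33, SE 0.23, adjusted p = 0.0037). Cd209a, the DC-SIGN homologue of monocyte-derived DCs, was listed at 0 and 0 counts in the LPS libraries, against 75 and 180 counts in the unstimulated ones, which is at least 39.5-fold lower if each LPS library is set to a floor of 3 counts. Of 7 tested Fc receptors 3 rose and 1 fell, against 1 to 3 higher and 0 to 1 lower in fits without 1 library. Fcgr1, the high-affinity IgG receptor, had 119 and 82.5 CPM in the LPS libraries, against 17.96 and 10.5 CPM in the unstimulated ones (log2 fold change 2.82, SE 0.41, adjusted p = 0.0028).

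Signalling genes downstream of TLR4 and of cytokine receptors were mostly higher. Of 18 NF-kB subunits and feedback inhibitors 16 rose and 0 fell (median 0.91), of 20 SOCS and DUSP brakes 10 rose and 4 fell (median 0.57, with 2 lower without LPS replicate 1 or 2 or unstimulated replicate 2). Bcl3, a nuclear IkB protein, had 216 and 230.4 CPM in the LPS libraries, against 71.9 and 61.9 CPM in the unstimulated ones (log2 fold change 1.74, SE 0.15, adjusted p = 2.8e-04). Socs3, which blocks cytokine receptors that signal through STAT3, had 96.4 and 116 CPM in the LPS libraries, against 17.7 and 38.1 CPM in the unstimulated ones (log2 fold change 1.93, SE 0.33, adjusted p = 0.0048). Dusp2, a nuclear phosphatase of MAP kinases, had 154 and 176 CPM in the LPS libraries, against 54.4 and 67.9 CPM in the unstimulated ones (log2 fold change 1.43, SE 0.17, adjusted p = 8.0e-04). Dusp6, the cytoplasmic ERK phosphatase, had 17.04 and 26.1 CPM in the LPS libraries, against 48.7 and 73.2 CPM in the unstimulated ones (log2 fold change -1.50, SE 0.26, adjusted p = 0.0043). The first 3 of these were higher in both LPS libraries and Dusp6 was lower in both. Cish, a SOCS protein induced through STAT5, rose with a log2 fold change of 2.32.

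Transcription factor families moved apart. Of 16 IRF and STAT factors 12 rose and 0 fell (median 0.84), while AP-1, ATF, EGR and C/EBP factors went both ways, with 8 higher and 7 lower of 22 (median -0.38, at 0.25 without unstimulated replicate 2, with 2 lower without LPS replicate 1 or unstimulated replicate 2 and 4 without LPS replicate 2). Batf2, a basic leucine zipper factor induced by interferon, had 13.4 and 13.5 CPM in the LPS libraries, against 2.16 and 1.74 CPM in the unstimulated ones (log2 fold change 2.78, SE 0.23, adjusted p = 2.8e-04). Fosl2, a Fos-family partner of Jun proteins, had 54.6 and 60.1 CPM in the LPS libraries, against 21.2 and 26.8 CPM in the unstimulated ones (log2 fold change 1.25, SE 0.22, adjusted p = 0.0036). Egr2, an early growth response factor, had 6.12 and 2.99 CPM in the LPS libraries, against 21.6 and 15.5 CPM in the unstimulated ones (log2 fold change -2.02, SE 0.44, adjusted p = 0.0092). Both LPS libraries were above the unstimulated ones for Batf2 and Fosl2 and below them for Egr2. Nuclear receptors also went both ways. Vdr, the receptor for active vitamin D, had 82.1 and 82.1 CPM in the LPS libraries, against 5.25 and 4.72 CPM in the unstimulated ones (log2 fold change 4.04, SE 0.26, adjusted p = 2.8e-04), and its 2 LPS libraries were almost equal. Nr1h3, the oxysterol receptor LXR-alpha, had 68.4 and 47.6 CPM in the LPS libraries, against 18.3 and 13.4 CPM in the unstimulated ones (log2 fold change 1.87, adjusted p = 0.0056). In all, 6 nuclear receptors rose and 4 fell of 19 (median -0.23, with 1 lower without LPS replicate 1 or unstimulated replicate 2, 2 without LPS replicate 2 and 8 with library size alone).

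Chemokine and interleukin genes rose more often than they fell, while TNF-family ligands did not (median log2 fold change -0.24). Of 21 tested chemokine ligands 8 rose and 2 fell (median 0.54, with 0 lower without LPS replicate 1 or 2 or unstimulated replicate 2 and 1 without unstimulated replicate 1), of 18 interleukins and colony-stimulating factors 10 rose and 2 fell (median 1.38, with 1 lower without LPS replicate 1 or 2 or unstimulated replicate 2), and of 13 TNF-family ligands 2 rose and 2 fell (with 1 lower without LPS replicate 1 or 2 or unstimulated replicate 1). Cxcl10, which attracts CXCR3-bearing T cells, had 109 and 71.5 CPM in the LPS libraries, against 2.38 and 6.02 CPM in the unstimulated ones (log2 fold change 4.43, SE 0.47, adjusted p = 8.9e-04). Ccl5, which attracts T cells and monocytes, was already high and had 1405 and 1468 CPM in the LPS libraries, against 582 and 501 CPM in the unstimulated ones (log2 fold change 1.41, SE 0.16, adjusted p = 5.3e-04). Il1rn, the IL-1 receptor antagonist, had 441 and 299 CPM in the LPS libraries, against 58.7 and 32.6 CPM in the unstimulated ones (log2 fold change 3.02, SE 0.36, adjusted p = 0.0014). Both LPS libraries exceeded both unstimulated ones in each of these 3. Il1b itself, the inflammasome-processed IL-1, had 630.1 and 707 CPM in the LPS libraries, against 41.6 and 37.9 CPM in the unstimulated ones (log2 fold change 4.07, SE 0.21, adjusted p = 1.2e-04). Osm and Lif, related cytokines that signal through gp130, rose with log2 fold changes of 1.83 and 1.85, and Il15, which sustains NK and memory CD8 T cells, with 1.25. Il16, a chemoattractant of CD4 cells, went the other way with 4.22 and 5.37 CPM in the LPS libraries, against 27.5 and 38.0 CPM in the unstimulated ones (log2 fold change -2.77, adjusted p = 5.2e-04). Tnfsf4, the costimulatory OX40 ligand, had 80.6 and 66.9 CPM in the LPS libraries, against 9.17 and 8.32 CPM in the unstimulated ones (log2 fold change 3.07, adjusted p = 2.8e-04). Tnfsf8, the CD30 ligand, had 2.67 and 3.05 CPM in the LPS libraries, against 8.46 and 8.94 CPM in the unstimulated ones (log2 fold change -1.60, adjusted p = 0.0019). Neither gene overlapped between the groups. Tnf, the classic early cytokine of LPS, stood at 23.4 and 18 CPM in the LPS libraries, against 14.9 and 17.9 CPM in the unstimulated ones, and did not pass (log2 fold change 0.34, SE 0.20, adjusted p = 0.21). Il12b, the p40 chain of IL-12 and IL-23, stood at 819 and 1021 CPM in the LPS libraries, against 754 and 463 CPM in the unstimulated ones, and did not pass either (log2 fold change 0.60, SE 0.23, adjusted p = 0.075), although it did with DESeq2 (adjusted p = 0.019) and without unstimulated replicate 1 (adjusted p = 0.0062).

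Receptors for cytokines and chemokines went both ways, as all tested genes did (20.0% higher and 17.6% lower). Il2ra, the high-affinity IL-2 receptor chain, had 262 and 223 CPM in the LPS libraries, against 37.6 and 25.2 CPM in the unstimulated ones (log2 fold change 2.95, SE 0.26, adjusted p = 4.2e-04). Il15ra, which presents IL-15 on the DC surface, had 294 and 309 CPM in the LPS libraries, against 122 and 90.7 CPM in the unstimulated ones (log2 fold change 1.50, SE 0.20, adjusted p = 0.0012). Ifngr1, the ligand-binding chain of the interferon-gamma receptor, had 78.8 and 74.5 CPM in the LPS libraries, against 193 and 217 CPM in the unstimulated ones (log2 fold change -1.42, SE 0.12, adjusted p = 2.8e-04). Il6ra, the IL-6 receptor, had 36.9 and 40.6 CPM in the LPS libraries, against 82.8 and 117 CPM in the unstimulated ones (log2 fold change -1.37, SE 0.22, adjusted p = 0.0029). The first pair was higher in both LPS libraries and the second pair lower in both. Of 35 receptors in this list 10 rose and 6 fell (with 13 lower with library size alone). Of 14 chemokine receptors 4 rose and 4 fell. Cxcr5, the receptor that leads cells to B cell follicles, had 23.9 and 23.7 CPM in the LPS libraries, against 3.70 and 3.71 CPM in the unstimulated ones (log2 fold change 2.68, adjusted p = 2.8e-04). Ccr2, which draws monocytes out of bone marrow, had 31.9 and 63.8 CPM in the LPS libraries, against 187 and 386 CPM in the unstimulated ones (log2 fold change -2.58, adjusted p = 0.0068). Cxcr4, the receptor for CXCL12, rose as well (log2 fold change 1.31).

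Lipid and nucleotide receptors, integrins and guidance receptors each held rising and falling members, as did all tested genes (20.0% higher and 17.6% lower). Gpr132, a receptor for lysophospholipids and oxidised fatty acids, had 1315 and 1384 CPM in the LPS libraries, against 596 and 494 CPM in the unstimulated ones (log2 fold change 1.31, SE 0.15, adjusted p = 6.0e-04). Adora2a, the adenosine receptor that raises cyclic AMP, had 255 and 288 CPM in the LPS libraries, against 122 and 105 CPM in the unstimulated ones (log2 fold change 1.26, SE 0.12, adjusted p = 3.5e-04). Lpar6, a lysophosphatidic acid receptor, had 25.1 and 28.3 CPM in the LPS libraries, against 127 and 136 CPM in the unstimulated ones (log2 fold change -2.30, SE 0.20, adjusted p = 3.4e-04). S1pr4, a sphingosine 1-phosphate receptor of leukocytes, had 3.50 and 7.02 CPM in the LPS libraries, against 24.5 and 29.5 CPM in the unstimulated ones (log2 fold change -2.36, SE 0.43, adjusted p = 0.0055). S1pr1, the sphingosine receptor for egress into lymph, rose (log2 fold change 1.79). Of 22 such receptors 5 rose and 7 fell. Among 21 integrin genes and ligands 6 rose and 9 fell (median -0.63, with 3 higher without LPS replicate 1 or 2 or unstimulated replicate 2). Itgae, the CD103 chain that binds E-cadherin, had 7.36 and 14.3 CPM in the LPS libraries, against 97.8 and 83.6 CPM in the unstimulated ones (log2 fold change -3.07, adjusted p = 0.0035). Itgb7 had 242 and 298 CPM in the LPS libraries, against 566 and 701 CPM in the unstimulated ones (log2 fold change -1.23, adjusted p = 0.0049). Icam1, the ligand of LFA-1, had 514 and 536 CPM in the LPS libraries, against 281 and 259.9 CPM in the unstimulated ones (log2 fold change 0.96, adjusted p = 5.8e-04). Both chains of the CD103 integrin were below and Icam1 above the unstimulated libraries. Sema7a, a semaphorin anchored in the membrane, had 796 and 872 CPM in the LPS libraries, against 216 and 173 CPM in the unstimulated ones (log2 fold change 2.10, adjusted p = 2.8e-04). Nrp1, a coreceptor for semaphorins and VEGF, had 32.0 and 28.8 CPM in the LPS libraries, against 97.5 and 119 CPM in the unstimulated ones (log2 fold change -1.83, adjusted p = 0.001). Of 19 such genes 4 rose and 5 fell (with 3 lower without LPS replicate 1 or 2 and 2 without unstimulated replicate 2). Of 33 actin regulators 15 rose, among them Marcksl1 and Cdc42ep3 with log2 fold changes of 1.17 and 1.10, and 5 fell (with 9 higher without unstimulated replicate 2 or with library size alone, and 2 lower without LPS replicate 1 or unstimulated replicate 2 and 8 with library size alone). Kdr, the VEGF receptor usually found on endothelium, had 147 and 146 CPM in the LPS libraries, against 12.8 and 22.0 CPM in the unstimulated ones (log2 fold change 3.07, adjusted p = 4.8e-04), beside other endothelial genes that fell, Vwf (log2 fold change -1.71) and Pecam1 (-1.70).

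**Figure D2:**
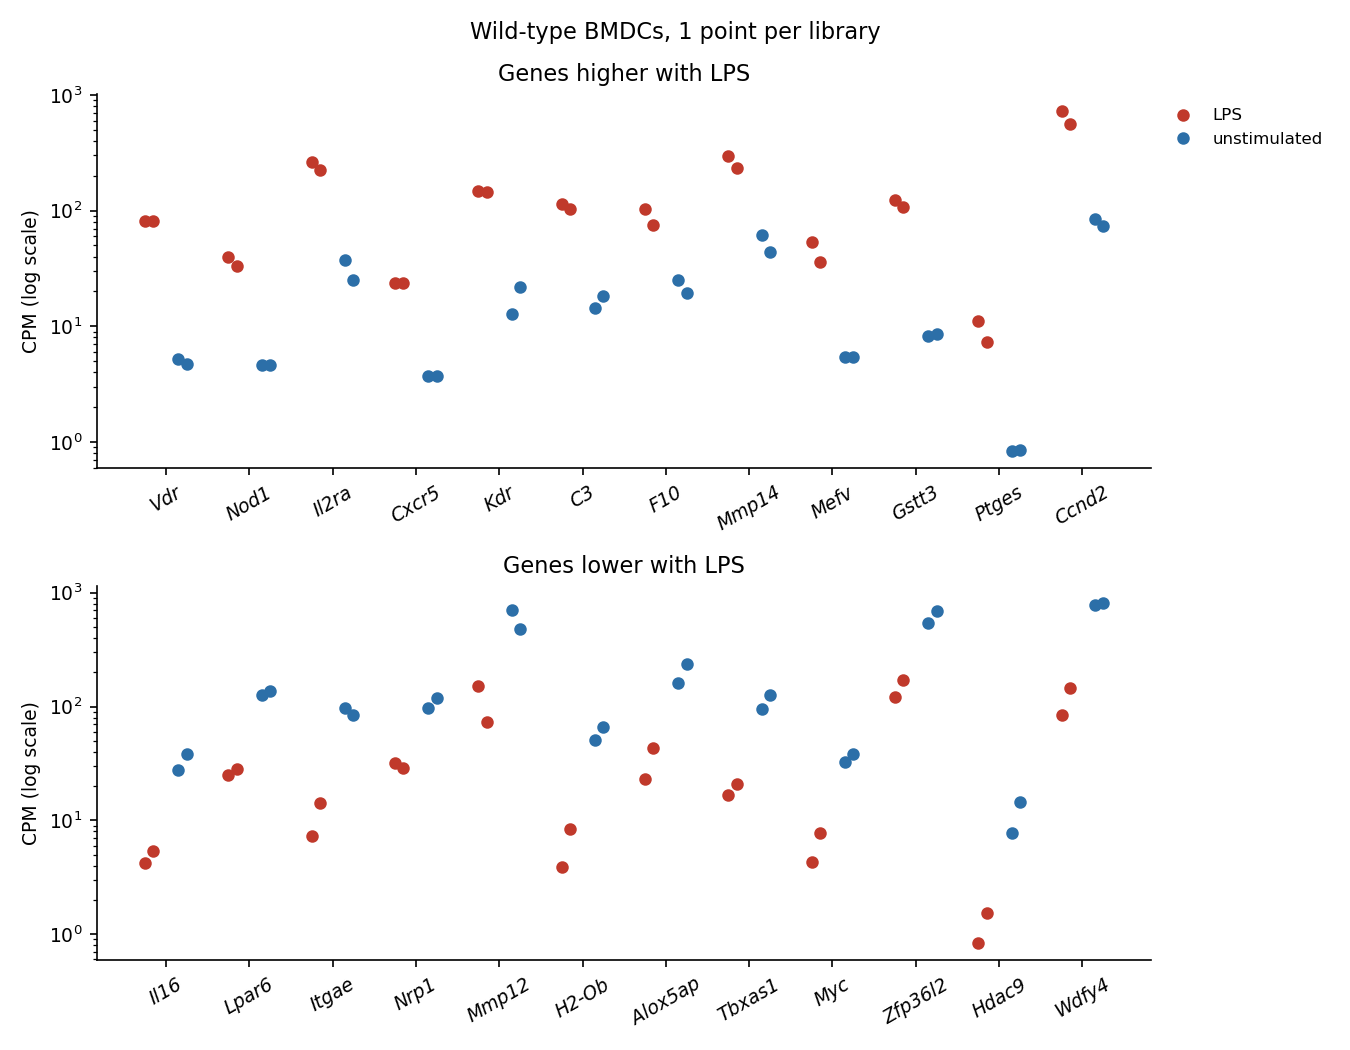
CPM on a log scale of 24 genes in each library, LPS libraries (red) left of unstimulated libraries (blue) for each gene, 1 point per library. Genes of the upper row rose and genes of the lower row fell, and no red point overlaps a blue one within a gene. List members were picked for no overlap, so this separation was set by the choice.

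Complement genes rose more often than they fell. Coagulation and matrix protease genes went both ways by their counts, as all tested genes did (20.0% higher and 17.6% lower). Their median log2 fold changes were -0.78 and 0.10, against -0.024 over all tested genes. Of 16 tested complement genes 8 rose and 2 fell (median 1.47, with 5 higher without LPS replicate 1 or 2 or unstimulated replicate 2 and 4 without unstimulated replicate 1, and 1 lower without LPS replicate 1 or unstimulated replicate 1 or 2). C3, the central component, had 115 and 103 CPM in the LPS libraries, against 14.5 and 18.2 CPM in the unstimulated ones (log2 fold change 2.74, SE 0.23, adjusted p = 3.4e-04). C1ra, a protease that starts the classical pathway, had 6.06 and 3.78 CPM in the LPS libraries, against 0.387 and 0.225 CPM in the unstimulated ones (log2 fold change 3.97, SE 0.59, adjusted p = 0.0017). Both genes were higher in both LPS libraries. Among 16 coagulation genes 4 rose and 4 fell (with 2 higher without LPS replicate 1 or 2 or unstimulated replicate 2 or with library size alone, and 2 lower without LPS replicate 1, 1 without LPS replicate 2 and 8 with library size alone). F10, coagulation factor X, had 104 and 74.9 CPM in the LPS libraries, against 25.0 and 19.5 CPM in the unstimulated ones (log2 fold change 2.01, SE 0.26, adjusted p = 0.0015). F2rl2, a thrombin-binding receptor, had 0.713 and 2.38 CPM in the LPS libraries, against 16.5 and 19.4 CPM in the unstimulated ones (log2 fold change -3.54, SE 0.58, adjusted p = 0.0036). Of 24 matrix metalloproteinase, ADAM and inhibitor genes 5 rose and 6 fell. Both counts moved by over 1.5 times in some fits without 1 WT library. Mmp14, a membrane-bound collagenase, had 298 and 233 CPM in the LPS libraries, against 61.5 and 44.1 CPM in the unstimulated ones (log2 fold change 2.33, adjusted p = 8.9e-04). Mmp12, the macrophage elastase, had 151 and 72.5 CPM in the LPS libraries, against 702 and 480.4 CPM in the unstimulated ones (log2 fold change -2.40, adjusted p = 0.0061). The groups were separate in all 4 genes.

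Genes for class I antigen processing rose more often than they fell, and those for class II fell more often than they rose. Of 6 immunoproteasome and PA28 genes 5 rose (median 0.80), and of 34 constitutive proteasome genes 21 rose and 0 fell, each by less than 2-fold (median 0.31). The count of constitutive subunits called higher was 13 with upper-quartile scaling, 9 without LPS replicate 1, 8 without LPS replicate 2, 11 without unstimulated replicate 1, 10 without unstimulated replicate 2 and 6 with library size alone. Psme2, a subunit of the PA28 cap that widens the output of the immunoproteasome, had 898 and 854 CPM in the LPS libraries, against 480.00 and 399 CPM in the unstimulated ones (log2 fold change 1.00, SE 0.15, adjusted p = 0.0015). Psmb10, an immunoproteasome catalytic subunit, had 301 and 285 CPM in the LPS libraries, against 152 and 158 CPM in the unstimulated ones (log2 fold change 0.92, SE 0.12, adjusted p = 8.4e-04). Psmb6, a catalytic subunit of the constitutive form, had 164 and 162 CPM in the LPS libraries, against 116 and 109 CPM in the unstimulated ones (log2 fold change 0.54, SE 0.10, adjusted p = 0.0039). Both LPS libraries exceeded both unstimulated libraries in all 3. Of 14 class I loading genes 8 rose, with Cd1d1, which presents lipids to NKT cells, at 199 and 187 CPM in the LPS libraries, against 41.0 and 29.9 CPM in the unstimulated ones (log2 fold change 2.44, SE 0.19, adjusted p = 2.8e-04). Among 18 class II genes 9 fell and 3 rose (median -0.59, with 3 lower without LPS replicate 1 and 4 without unstimulated replicate 2). H2-Ob, a chain of the DO molecule that restrains peptide exchange, had 3.86 and 8.42 CPM in the LPS libraries, against 50.6 and 66.5 CPM in the unstimulated ones (log2 fold change -3.25, adjusted p = 0.002). H2-DMa, a chain of the DM peptide exchanger, had 69.2 and 107 CPM in the LPS libraries, against 204 and 285 CPM in the unstimulated ones (log2 fold change -1.48, adjusted p = 0.0072). The 3 that rose were Ifi30, a lysosomal thiol reductase (1.17), Lgmn, an asparaginyl endopeptidase (1.13), and Rfx5, a class II promoter factor (0.74).

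Most members of the antiviral families rose. Of 18 guanylate-binding and immunity-related GTPases 17 rose and 0 fell (median 3.30), of 29 OAS, IFIT, MX and other nucleic acid effectors 24 rose (median 2.99), of 23 genes of ISG15 conjugation and antiviral ubiquitin ligases 22 rose (median 1.37), and of 16 PARP genes 9 rose and 1 fell (median 0.54). Oas1g, an oligoadenylate synthetase that activates RNase L, had 47.7 and 28.7 CPM in the LPS libraries, against 0.718 and 0.956 CPM in the unstimulated ones (log2 fold change 5.50, SE 0.47, adjusted p = 3.8e-04). Tgtp1, an immunity-related GTPase of the vacuole, had 42.3 and 41.4 CPM in the LPS libraries, against 1.33 and 1.46 CPM in the unstimulated ones (log2 fold change 4.90, SE 0.25, adjusted p = 1.2e-04). Parp14, an ADP-ribosyltransferase, had 840.3 and 583 CPM in the LPS libraries, against 128 and 122 CPM in the unstimulated ones (log2 fold change 2.51, SE 0.23, adjusted p = 3.8e-04). Parp1, the DNA damage sensor, had 61.7 and 67.0 CPM in the LPS libraries, against 92.0 and 117 CPM in the unstimulated ones (log2 fold change -0.70, SE 0.14, adjusted p = 0.0058). For the first 3 the LPS libraries were above and for Parp1 below the unstimulated ones. LPS replicate 1 exceeded replicate 2 in 68 of the 72 called members of these 4 lists, by a median of 0.35 on the log2 scale, against a median of -0.0053 over all tested genes. Close paralogs in these families can share or lose reads, and how such reads were treated is not stated.

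Promoters of interferon and NF-kB target genes are known to hold the interferon-stimulated response element (ISRE, bound by STAT and IRF factors) and the kB site (bound by NF-kB). They are shown as 120 bases up to the transcription start, from RefSeq on GRCm38.p6, in lower case, with matches to an ISRE core (GAAANNGAAA) or a kB core (GGGANNTTCC), on either strand, in capitals. Isg15 (chr4:156200819-156200938, minus strand) and Ifit1 (chr19:34640769-34640888, plus strand) are shown for overlapping and paired ISRE cores. Gbp2 (chr3:142620543-142620662, plus strand), with an ISRE core, and Gbp5 (chr3:142496814-142496933, plus strand), with a kB core, are shown as members of the same cluster with different matches. Ifi206 (chr1:173491319-173491438, minus strand), Ifi213 (chr1:173599273-173599392, minus strand) and Ifi208 (chr1:173673545-173673664, plus strand) are shown for a duplicated promoter.
Isg15: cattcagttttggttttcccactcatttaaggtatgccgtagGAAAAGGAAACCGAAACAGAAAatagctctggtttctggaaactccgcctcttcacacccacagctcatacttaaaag
Ifit1: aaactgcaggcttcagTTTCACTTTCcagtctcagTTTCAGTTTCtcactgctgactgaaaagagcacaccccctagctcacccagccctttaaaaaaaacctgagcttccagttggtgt
Gbp2: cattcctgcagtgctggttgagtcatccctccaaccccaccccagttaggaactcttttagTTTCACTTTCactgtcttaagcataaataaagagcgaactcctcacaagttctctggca
Gbp5: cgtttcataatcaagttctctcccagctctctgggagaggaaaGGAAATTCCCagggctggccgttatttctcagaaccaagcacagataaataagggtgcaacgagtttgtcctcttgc
Ifi206: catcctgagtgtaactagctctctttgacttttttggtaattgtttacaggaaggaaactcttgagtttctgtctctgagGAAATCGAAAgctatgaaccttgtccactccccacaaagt
Ifi213: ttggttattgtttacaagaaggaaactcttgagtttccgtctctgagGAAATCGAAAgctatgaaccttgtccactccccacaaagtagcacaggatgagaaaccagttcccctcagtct
Ifi208: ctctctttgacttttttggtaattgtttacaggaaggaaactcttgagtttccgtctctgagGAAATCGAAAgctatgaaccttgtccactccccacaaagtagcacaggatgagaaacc
The longest stretch identical in the last 3 has 49 bases and includes the ISRE core. All 7 genes rose, with log2 fold changes of 4.65 for Isg15, 5.23 for Ifit1, 3.23 for Gbp2, 3.64 for Gbp5, 6.52 for Ifi206, 5.36 for Ifi213 and 4.81 for Ifi208. These are picked examples. Most other named genes with a core in these 120 bases rose too, but some fell. Il16 (log2 fold change -2.77) and Dkc1 (-1.74) held kB cores, and Jaml, which was lower as well, held an ISRE core and a kB core.

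Over 300-base promoters (250 before the start and 50 after), an ISRE core was present in 3.44% of all 32851 promoters, in 3.24% of the 13078 promoters of tested genes, in 9.95% of the 925 promoters of genes more than 2-fold higher and in 2.32% of the 950 of genes more than 2-fold lower. The share was 17.6% above 8-fold and 47.4% among members of the antiviral lists. A kB core was present in 1.47% of all promoters, 1.51% of those of tested genes, 2.27% of those more than 2-fold higher, 1.79% of those more than 2-fold lower and 22.4% (11 of 49) among the NF-kB, chemokine and interleukin lists. An AP-1 site (TGANTCA, either strand) was in 7.81% of all promoters and 5.31% of those of tested genes. It was in 9.73% of those more than 2-fold higher, 15.9% of those more than 8-fold higher and 5.68% of those more than 2-fold lower. A TATA box (TATAAA, sense strand) was in 8.32% of all promoters and 4.34% of those of tested genes. At more than 2-fold its shares were close, 6.92% for higher and 6.11% for lower genes, and it was 17.1% above 8-fold higher. For the kB core the share above 8-fold higher was 4.71%. In the 150 bases before the start alone the kB shares turned round, at 0.865% of promoters more than 2-fold higher and 1.37% of those more than 2-fold lower, against 0.872% of those of tested genes and 12.2% among the NF-kB, chemokine and interleukin lists. The ISRE shares kept their order there, at 5.95% of promoters more than 2-fold higher and 1.37% of those more than 2-fold lower, against 1.58% of those of tested genes. Duplicated genes are counted once per promoter, so these shares are descriptions of sets that are not independent. The core letters were matched without regard to neighbouring bases, and a match is not a shown binding site.

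Some of the genes that changed were neighbours. There were 19 runs of 4 or more consecutive tested genes all more than 2-fold higher. They held 102 of the 958 genes more than 2-fold higher. There was 1 run of genes more than 2-fold lower. How many runs a random gene order would give was not tested. With a minimum of 5 genes there were 12 runs of higher genes, holding 74 genes, and 0 of lower genes. The longest, with 11 genes on chromosome 1 from 85012086 to 85709998 (GRCm38), included Sp100, Sp110 and Sp140, nuclear body proteins, of which Sp110 and Sp140 overlap. Others were the Slfn, Gbp, Oas, Ifit, Phf11 and H2-Q clusters. Runs were also found outside the interferon families. On chromosome 10 the glutathione transferases Gstt3, Gstt1 and Gstt2 and the neighbouring tautomerase Ddt rose together with log2 fold changes of 3.79, 6.96, 1.19 and 1.33, and Gstt3 had 124 and 108 CPM in the LPS libraries, against 8.18 and 8.61 CPM in the unstimulated ones. On chromosome 2 the protease inhibitor genes Wfdc9, Wfdc10, Wfdc11, Wfdc13, Spint4 and Spint5 rose. Wfdc13 had 26.9 and 17.5 CPM in the LPS libraries, against 2.10 and 0.675 CPM in the unstimulated ones (log2 fold change 3.99, SE 0.46, adjusted p = 8.9e-04). On chromosome 19 Jak2, the kinase of many cytokine receptors, rose with its neighbours Insl6 and Rcl1 (log2 fold changes 1.01, 1.02 and 1.05). The run of lower genes, on chromosome 5, held Ppef2, Naaa and Sdad1, and Naaa, an acid amidase that type 1 DCs express, had 30.2 and 63.6 CPM in the LPS libraries, against 264 and 426 CPM in the unstimulated ones (log2 fold change -2.88, SE 0.56, adjusted p = 0.0083).

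Genes that promote and genes that oppose cell death were among those that rose. Bcl2, Bid and Bmf of the first list below and Pycard and Gsdme of the second were called lower. Of 23 BCL2-family and death receptor genes 15 rose and 3 fell (median 0.58, with 1 lower without LPS replicate 1 or unstimulated replicate 2). Bcl2l11, the pro-apoptotic BH3 protein BIM, had 539.7 and 501 CPM in the LPS libraries, against 154 and 151 CPM in the unstimulated ones (log2 fold change 1.77, SE 0.15, adjusted p = 2.8e-04), while the survival gene Mcl1 had 1245 and 1261 CPM in the LPS libraries, against 865 and 787 CPM in the unstimulated ones (log2 fold change 0.60, SE 0.13, adjusted p = 0.0084). Bcl2a1d, a survival gene with near-identical copies, rose with a log2 fold change of 1.05, uncertain as a single gene. Of 18 inflammasome, pyroptosis and necroptosis genes 10 rose and 2 fell (median 0.57, with 1 lower without LPS replicate 1 or 2 or unstimulated replicate 2). Casp4, the caspase that binds intracellular LPS, had 65.5 and 40.9 CPM in the LPS libraries, against 9.51 and 11.8 CPM in the unstimulated ones (log2 fold change 2.32, SE 0.24, adjusted p = 5.2e-04). Mefv, which encodes the inflammasome sensor pyrin, had 53.3 and 36.1 CPM in the LPS libraries, against 5.47 and 5.40 CPM in the unstimulated ones (log2 fold change 3.04, SE 0.28, adjusted p = 3.8e-04). Mlkl, the executor of necroptosis, had 29.8 and 22.5 CPM in the LPS libraries, against 6.02 and 8.10 CPM in the unstimulated ones (log2 fold change 1.89, adjusted p = 0.0022). The groups did not overlap in any of these genes.

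Eicosanoid genes fell more often than they rose. Of 25 tested prostaglandin and leukotriene genes 14 fell and 5 rose (median -0.61, with 9 lower without LPS replicate 1, and 3 higher without unstimulated replicate 2). Alox5ap, which hands arachidonic acid to 5-lipoxygenase, had 23.2 and 42.8 CPM in the LPS libraries, against 159.9 and 235 CPM in the unstimulated ones (log2 fold change -2.58, SE 0.41, adjusted p = 0.0039). Tbxas1, the thromboxane synthase, had 16.6 and 20.9 CPM in the LPS libraries, against 94.2 and 127 CPM in the unstimulated ones (log2 fold change -2.56, SE 0.36, adjusted p = 0.0025). Hpgds, the prostaglandin D synthase of immune cells, had 30.6 and 47.0 CPM in the LPS libraries, against 161 and 199 CPM in the unstimulated ones (log2 fold change -2.21, SE 0.35, adjusted p = 0.0039). Ptges, the inducible prostaglandin E synthase, rose instead, with 11.1 and 7.26 CPM in the LPS libraries, against 0.829 and 0.844 CPM in the unstimulated ones (log2 fold change 3.45, SE 0.34, adjusted p = 3.8e-04). Receptors divided likewise. Ptger4, the prostaglandin E receptor that supports DC migration, had 285 and 307 CPM in the LPS libraries, against 179 and 182 CPM in the unstimulated ones (log2 fold change 0.71, adjusted p = 0.0016). Cysltr1, a leukotriene receptor, had 7.60 and 10.5 CPM in the LPS libraries, against 42.4 and 46.2 CPM in the unstimulated ones (log2 fold change -2.29, adjusted p = 1.0e-03). Both LPS libraries were above for Ptges and Ptger4 and below for the others.

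Of 23 immunometabolic enzymes 10 rose and 6 fell (median 0.41, with 3 lower without LPS replicate 1). Acod1, which makes itaconate, had 360.2 and 285 CPM in the LPS libraries, against 25.6 and 35.9 CPM in the unstimulated ones (log2 fold change 3.39, SE 0.24, adjusted p = 2.8e-04). Ass1, which recycles citrulline to arginine, had 762 and 741 CPM in the LPS libraries, against 327 and 255 CPM in the unstimulated ones (log2 fold change 1.37, SE 0.15, adjusted p = 4.7e-04). Srm, the spermidine synthase, had 5.76 and 7.63 CPM in the LPS libraries, against 22.9 and 26.1 CPM in the unstimulated ones (log2 fold change -1.87, SE 0.32, adjusted p = 0.0032). Acod1 and Ass1 were higher and Srm lower in both LPS libraries. Slc7a2, an arginine carrier, had 20.9 and 14.6 CPM in the LPS libraries, against 4.70 and 2.02 CPM in the unstimulated ones (log2 fold change 2.40, SE 0.45, adjusted p = 0.0065). Slc1a5, a glutamine carrier, had 39.5 and 47.1 CPM in the LPS libraries, against 117 and 153 CPM in the unstimulated ones (log2 fold change -1.64, adjusted p = 0.0038). Of 20 amino acid transporters 3 rose and 8 fell (with 1 higher without LPS replicate 1, and 5 lower without LPS replicate 1 or unstimulated replicate 2). Most glycolytic genes did not pass. In that list 3 rose and 6 fell of 25 (median -0.069, at 0.0038 without LPS replicate 1, with 2 lower without LPS replicate 1 and 3 without LPS replicate 2 or unstimulated replicate 2). Pfkfb3, which makes the activator of phosphofructokinase, had 3683 and 3608 CPM in the LPS libraries, against 1341 and 985 CPM in the unstimulated ones (log2 fold change 1.65, adjusted p = 0.0011). Aldoc, an aldolase, had 2.32 and 5.12 CPM in the LPS libraries, against 27.5 and 27.4 CPM in the unstimulated ones (log2 fold change -2.88, adjusted p = 8.0e-04). Of 42 nuclear-encoded respiratory chain genes 2 rose and 4 fell (median -0.087, with 1 higher without LPS replicate 2 or unstimulated replicate 1 or 2, and 0 lower without LPS replicate 1 or unstimulated replicate 2, 1 without LPS replicate 2 and 18 with library size alone).

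Lipid synthesis and nucleotide synthesis genes fell more often than they rose. Of 32 cholesterol and fatty acid synthesis genes 17 fell and 1 rose (median -0.76), and lower members numbered 3 without LPS replicate 1 and 4 without unstimulated replicate 2. Dhcr7, which makes cholesterol from its last precursor, had 17.6 and 15.2 CPM in the LPS libraries, against 39.4 and 42.3 CPM in the unstimulated ones (log2 fold change -1.31, SE 0.21, adjusted p = 0.0023). Fads1, a fatty acid desaturase, had 28.7 and 43.0 CPM in the LPS libraries, against 85.8 and 112 CPM in the unstimulated ones (log2 fold change -1.46, SE 0.27, adjusted p = 0.0062). Pmvk, a mevalonate pathway kinase, was the exception with 161 and 174 CPM in the LPS libraries, against 57.7 and 48.0 CPM in the unstimulated ones (log2 fold change 1.67, SE 0.19, adjusted p = 6.4e-04). Of 27 pentose phosphate and nucleotide genes 13 fell and 1 rose (median -0.50, with 4 lower without LPS replicate 1 and 6 without unstimulated replicate 2). Cad, the enzyme of the first steps of pyrimidine synthesis, had 17.9 and 23.9 CPM in the LPS libraries, against 49.5 and 54.9 CPM in the unstimulated ones (log2 fold change -1.32, SE 0.20, adjusted p = 0.0019). The groups were separate in these 4 genes. Fatty acid oxidation genes fell more often as well, 12 against 4 higher of 27 (with 4 lower without LPS replicate 1 or 2 and 5 without unstimulated replicate 2), with Hsd17b4, a peroxisomal enzyme, at 92.0 and 110.3 CPM in the LPS libraries, against 241 and 252 CPM in the unstimulated ones (log2 fold change -1.28, adjusted p = 0.0013). Acadm, the medium-chain acyl-CoA dehydrogenase, rose with 255 and 223 CPM in the LPS libraries, against 69.1 and 68.1 CPM in the unstimulated ones (log2 fold change 1.80, adjusted p = 2.8e-04).

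Antioxidant, stress response and lysosomal genes fell more often than they rose. Of 26 NRF2-related antioxidant genes 13 fell and 7 rose (median -0.40, with 4 lower without LPS replicate 1 or unstimulated replicate 2 and 5 without LPS replicate 2). Gclc, the catalytic subunit for glutathione synthesis, had 114 and 173 CPM in the LPS libraries, against 429.8 and 355 CPM in the unstimulated ones (log2 fold change -1.45, SE 0.26, adjusted p = 0.0049). Sod2, the mitochondrial superoxide dismutase, had 154 and 125 CPM in the LPS libraries, against 58.7 and 69.4 CPM in the unstimulated ones (log2 fold change 1.13, SE 0.22, adjusted p = 0.0065). Of 25 stress response genes 8 fell and 3 rose (with 3 lower without LPS replicate 1 and 4 without unstimulated replicate 2, and 1 higher without LPS replicate 1 or 2 or with library size alone). Xbp1, a transcription factor of the unfolded protein response, had 98.5 and 121 CPM in the LPS libraries, against 208 and 318 CPM in the unstimulated ones (log2 fold change -1.26, SE 0.22, adjusted p = 0.0043). Chac1, a glutathione-degrading target of ATF4, had 1.48 and 1.89 CPM in the LPS libraries, against 5.64 and 11.9 CPM in the unstimulated ones (log2 fold change -2.37, SE 0.43, adjusted p = 0.0038). Of 41 lysosomal genes 11 fell and 3 rose (median -0.23, with 7 lower without LPS replicate 2 and 18 with library size alone, and 1 higher without LPS replicate 1 or 2 or with library size alone). Man2b1, the lysosomal alpha-mannosidase, had 244 and 268 CPM in the LPS libraries, against 557 and 659 CPM in the unstimulated ones (log2 fold change -1.25, adjusted p = 0.0014). Tfeb, the master regulator of lysosome genes, had 26.5 and 33.7 CPM in the LPS libraries, against 50.5 and 57.7 CPM in the unstimulated ones (log2 fold change -0.85, adjusted p = 0.0049). Ctsz, a cathepsin, rose with 1801 and 1698 CPM in the LPS libraries, against 1015 and 849 CPM in the unstimulated ones (log2 fold change 0.91, adjusted p = 0.0016). Both LPS libraries were below the unstimulated ones in Gclc, Xbp1, Chac1, Man2b1 and Tfeb and above them in Sod2 and Ctsz. Spic, a transcription factor of iron-recycling macrophages, had 139 and 145 CPM in the LPS libraries, against 66.0 and 61.3 CPM in the unstimulated ones (log2 fold change 1.16, adjusted p = 2.8e-04).

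The protein synthesis machinery was lower almost throughout. Of 40 tested cytosolic ribosomal protein genes 33 fell and 0 rose (median -0.75), of 28 ribosome biogenesis genes 25 fell and 1 rose (median -0.75), and of 20 aminoacyl-tRNA synthetases 14 fell and 1 rose (median -0.58). Lower members numbered 21 without LPS replicate 1 for ribosomal proteins, 14 without LPS replicate 1 for biogenesis and 8 without LPS replicate 1, 9 without LPS replicate 2 and 7 without unstimulated replicate 2 for the synthetases. Myc, the transcription factor that drives ribosome production, had 4.33 and 7.81 CPM in the LPS libraries, against 32.6 and 38.6 CPM in the unstimulated ones (log2 fold change -2.55, SE 0.28, adjusted p = 5.3e-04). Polr1a, the largest subunit of RNA polymerase I, had 19.7 and 19.0 CPM in the LPS libraries, against 47.1 and 52.0 CPM in the unstimulated ones (log2 fold change -1.36, SE 0.17, adjusted p = 7.4e-04). Dkc1, which modifies ribosomal RNA, had 6.35 and 7.08 CPM in the LPS libraries, against 20.8 and 24.1 CPM in the unstimulated ones (log2 fold change -1.74, SE 0.23, adjusted p = 9.6e-04). Rpsa, a ribosomal protein, had 564 and 675 CPM in the LPS libraries, against 1197 and 1465 CPM in the unstimulated ones (log2 fold change -1.10, SE 0.17, adjusted p = 0.0017). In all 4 the LPS libraries lay below the unstimulated ones. Many ribosomal protein genes have processed copies in the genome, so their counts are uncertain to that extent. The synthetase that rose was Wars, the interferon-inducible tryptophanyl enzyme, with 162 and 166 CPM in the LPS libraries, against 90.4 and 89.0 CPM in the unstimulated ones (log2 fold change 0.87, adjusted p = 7.7e-04).

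**Figure D3:**
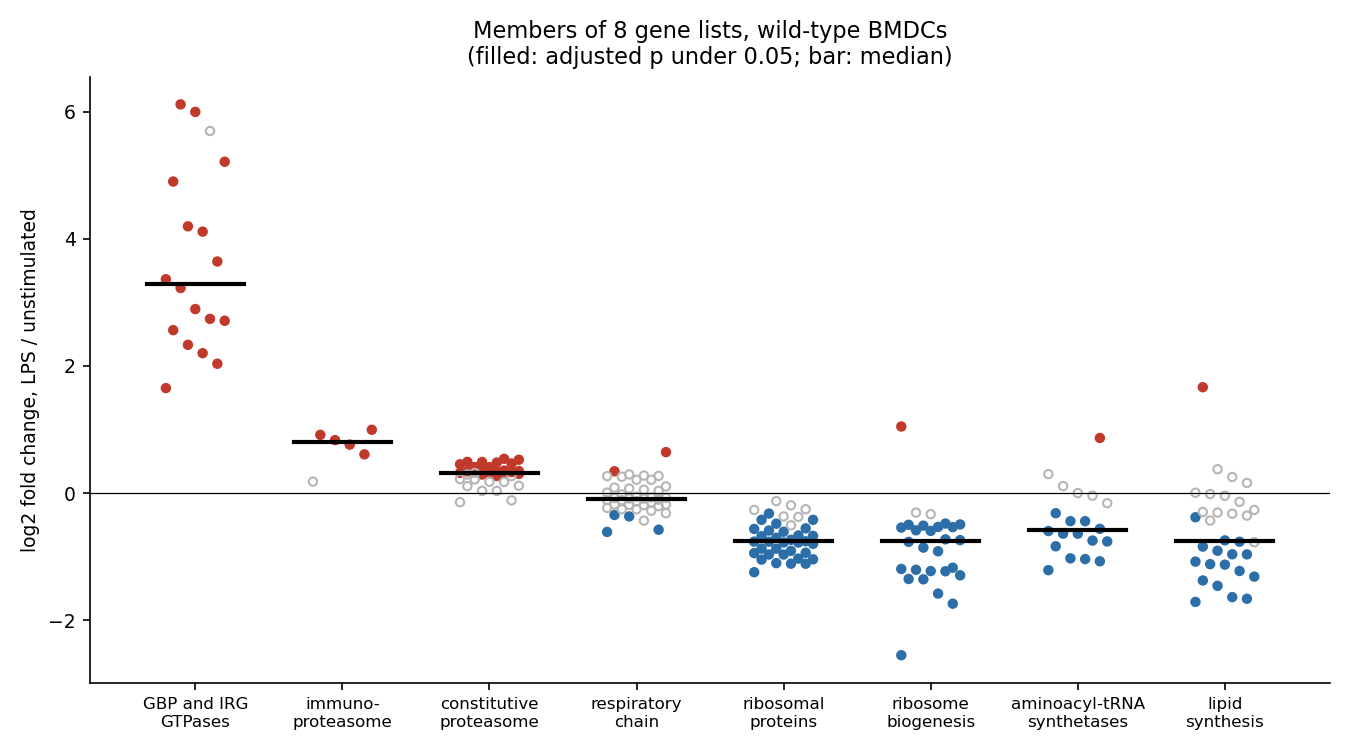
Log2 fold change of LPS against unstimulated WT BMDCs for each tested member of 8 gene lists, 1 point per gene, filled where the adjusted p was under 0.05, with a bar at the list's median. Ribosomal protein, biogenesis and tRNA synthetase genes lie mostly below 0, proteasome genes slightly above it and the GTPases far above it.

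Cell cycle genes were mixed, with 11 lower and 5 higher of 40 (median -0.65), and the lower count rested on single libraries, being 0 without LPS replicate 1, 18 without LPS replicate 2, 6 without unstimulated replicate 1 and 1 without unstimulated replicate 2. The higher count was 3 without LPS replicate 2 or unstimulated replicate 2. Ccnd2, a D-type cyclin, had 734 and 565 CPM in the LPS libraries, against 84.2 and 73.3 CPM in the unstimulated ones (log2 fold change 3.04, SE 0.25, adjusted p = 3.4e-04). Cdkn1a, the cyclin-dependent kinase inhibitor p21, had 923 and 975 CPM in the LPS libraries, against 380.3 and 391 CPM in the unstimulated ones (log2 fold change 1.30, SE 0.11, adjusted p = 2.8e-04). Both were higher in both LPS libraries. The other D-type cyclins in the list, Ccnd1 and Ccnd3, were called lower. Of 36 chromatin enzymes and Phf11 relatives 17 rose and 5 fell (median 0.32, with 3 lower without LPS replicate 1 or 2 or unstimulated replicate 1 and 8 with library size alone). Kdm6b, the demethylase of histone H3 lysine 27, had 224 and 231 CPM in the LPS libraries, against 99.98 and 80.7 CPM in the unstimulated ones (log2 fold change 1.33, SE 0.13, adjusted p = 3.5e-04). Hdac9, a class IIa histone deacetylase, had 0.831 and 1.53 CPM in the LPS libraries, against 7.74 and 14.6 CPM in the unstimulated ones (log2 fold change -3.24, SE 0.43, adjusted p = 9.5e-04). Tet1, a 5-methylcytosine dioxygenase, had 0.119 and 0.549 CPM in the LPS libraries, against 3.98 and 4.84 CPM in the unstimulated ones (log2 fold change -3.70, adjusted p = 0.0068). Kdm6b was above, and Hdac9 and Tet1 below, the unstimulated libraries. Among regulators of cytokine mRNA decay Zfp36l2, an AU-rich element binding protein, had 120.4 and 170.3 CPM in the LPS libraries, against 546 and 696 CPM in the unstimulated ones (log2 fold change -2.09, adjusted p = 0.0023). Zc3h12d, a ribonuclease of the regnase family, had 220.3 and 189.8 CPM in the LPS libraries, against 68.8 and 35.7 CPM in the unstimulated ones (log2 fold change 1.97, adjusted p = 0.0049). Zfp36, the best known AU-rich element binding protein, stood at 673 and 982 CPM in the LPS libraries, against 874 and 1172 CPM in the unstimulated ones, and did not pass (log2 fold change -0.31, SE 0.24, adjusted p = 0.35). The host gene of miR-155, Mir155hg, which is in no list and was chosen after its value was seen, rose with a log2 fold change of 2.41 (SE 0.20, adjusted p = 2.8e-04), a transcript count that does not measure the mature miRNA.

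Surface families outside the classical costimulatory pair also changed. Of 28 SLAM-family, paired receptor and costimulatory genes 14 rose and 6 fell (median 0.93). Cd200, a ligand that restrains myeloid cells, had 318 and 286 CPM in the LPS libraries, against 97.0 and 72.5 CPM in the unstimulated ones (log2 fold change 1.83, SE 0.19, adjusted p = 4.3e-04). Slamf6, a homotypic receptor of lymphocytes and DCs, had 7.18 and 5.98 CPM in the LPS libraries, against 1.05 and 0.731 CPM in the unstimulated ones (log2 fold change 2.87, SE 0.43, adjusted p = 0.0015). Icosl, the ligand of ICOS, had 99.2 and 112 CPM in the LPS libraries, against 202 and 214 CPM in the unstimulated ones (log2 fold change -0.98, SE 0.13, adjusted p = 9.1e-04). Cd200 and Slamf6 were higher and Icosl lower in both LPS libraries. Among MS4A, LY6 and CD300 genes Ms4a6d, a tetraspan protein of macrophages, had 248 and 176 CPM in the LPS libraries, against 35.5 and 42.9 CPM in the unstimulated ones (log2 fold change 2.43, SE 0.39, adjusted p = 0.0039). Cd300lg, a family member that binds lipids, had 0.178 and 0.366 CPM in the LPS libraries, against 4.86 and 6.13 CPM in the unstimulated ones (log2 fold change -4.31, adjusted p = 6.1e-04). Of the 20 tested members of these families 6 rose and 4 fell (with 3 higher without LPS replicate 2 or unstimulated replicate 1, and 1 lower without LPS replicate 1 or unstimulated replicate 2).

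Markers of DC subsets and of other cells moved beside these groups, and in bulk RNA fewer cells of a type and less RNA per cell cannot be told apart. Of 17 type 1 DC markers 12 fell and 3 rose (median -1.98, with 1 higher without LPS replicate 2), with a summed level of 2931 and 3567 CPM with LPS and 3932 and 4327 CPM without. Wdfy4, which type 1 DCs need for cross-presentation, had 84.0 and 147 CPM in the LPS libraries, against 781 and 817 CPM in the unstimulated ones (log2 fold change -2.79, SE 0.41, adjusted p = 0.0029). Irf8 and Batf3, factors these cells need, were called higher and Id2 was not called. Irf8 stood at 1779 and 2144 CPM with LPS and 1248 and 1237 CPM without, Batf3 at 83.0 and 102 CPM with LPS and 68.0 and 68.0 CPM without, and Id2 at 654 and 779 CPM with LPS and 676 and 849 CPM without. Irf8 and Id2 made up most of the summed level with LPS, so that sum says little of the other members. Of 17 type 2 DC markers 6 rose and 3 fell (median 0.23). Monocyte and macrophage markers went both ways, with 7 higher and 8 lower (with 4 higher without LPS replicate 1 or 2 or unstimulated replicate 1 or 2, and 3 lower without LPS replicate 1 or 2). Neutrophil markers were lower in 7 of 13, with 98.6 and 106 CPM in all with LPS and 165 and 255 CPM without. The count of lower ones was 4 without LPS replicate 2 or unstimulated replicate 2. Of the granule genes of neutrophil precursors, Mpo stood at 0.0594 and 1.04 CPM with LPS and 0.608 and 2.36 CPM without and Elane at 0.297 and 0 CPM with LPS and 0.718 and 1.63 CPM without. Of 14 plasmacytoid DC markers 4 rose and 2 fell (with 0 lower without LPS replicate 1 or unstimulated replicate 2 and 6 without unstimulated replicate 1). Siglech, a defining marker, stood at 1.43 and 7.87 CPM in the LPS libraries, against 13.6 and 46.3 CPM in the unstimulated ones (log2 fold change -2.69, SE 0.84, adjusted p = 0.044), with the highest value in unstimulated replicate 2. The part of these cells in the gene groups above was not tested. Without LPS replicate 1, Siglech (adjusted p = 0.15) did not pass. Without LPS replicate 2, Irf8 (adjusted p = 0.08), Batf3 (adjusted p = 0.12) and Elane (adjusted p = 0.15) did not pass. Without unstimulated replicate 1, Batf3 (adjusted p = 0.055) did not pass. Without unstimulated replicate 2, Batf3 (adjusted p = 0.069), Elane (adjusted p = 0.19) and Siglech (adjusted p = 0.26) did not pass.

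**Figure D4:**
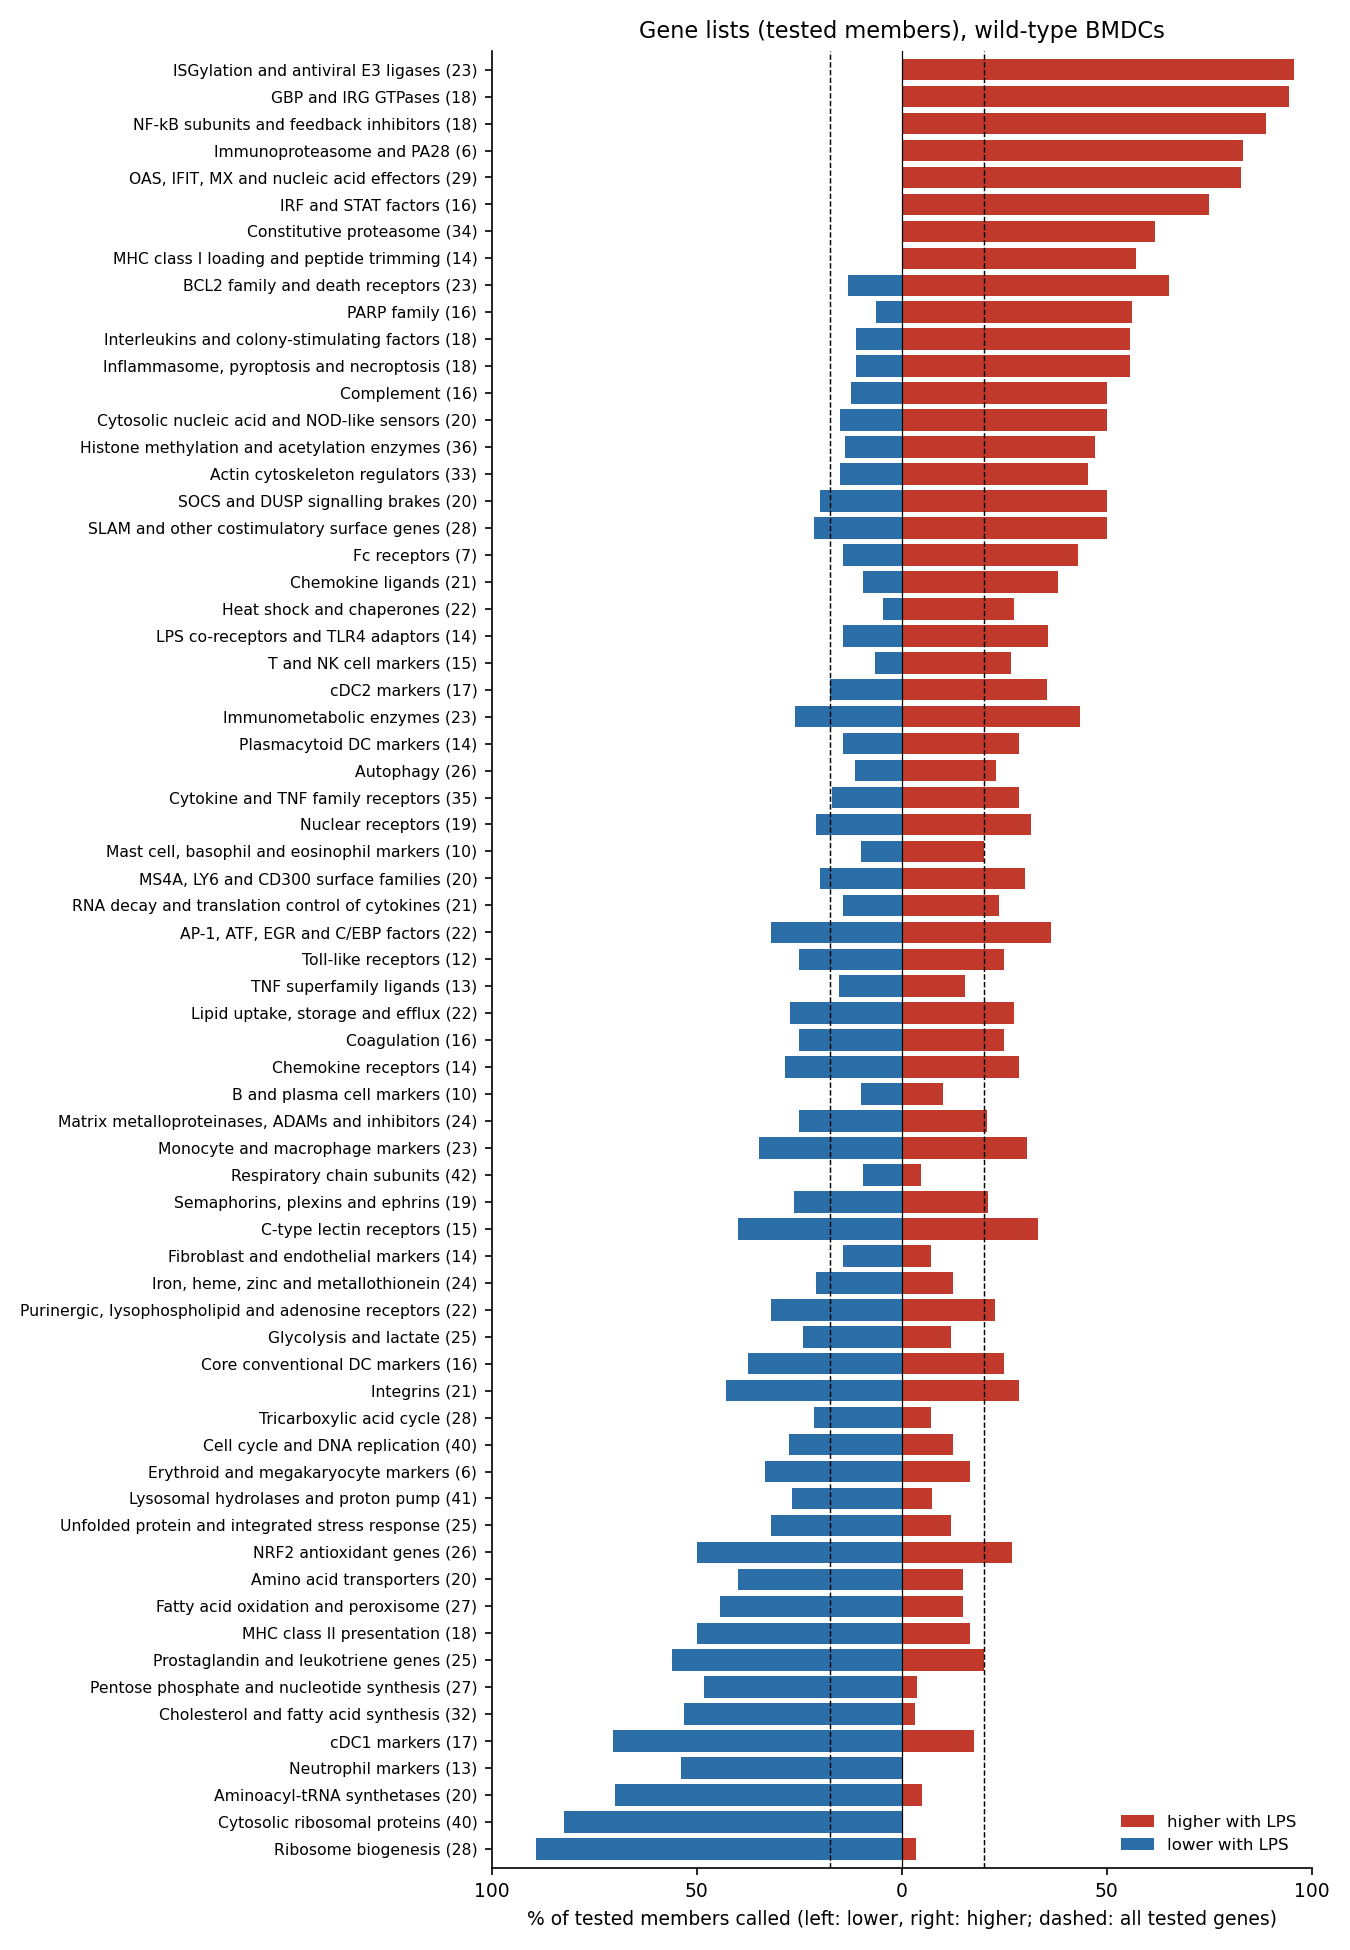
Share of the tested members of each of the 67 gene lists called higher (red, to the right) and lower (blue, to the left) with LPS in WT BMDCs, ordered by the difference. Dashed lines mark the shares over all tested genes, 20.0% higher and 17.6% lower. The ISG15 conjugation and GTPase lists lie at the top and translation lists at the bottom.

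The WT response was set against that of the libraries labelled Pde5 knockout, which got the same LPS. Pde5a, the phosphodiesterase named by that label, was weakly counted in every library, with 22 and 43 counts in knockout-labelled LPS libraries and 47 and 61 in knockout-labelled unstimulated ones, and 52 and 20 in WT LPS libraries and 55 and 37 in WT unstimulated ones, so its count did not separate the labels at this depth. The test of the difference between the responses (WT minus knockout-labelled) passed for 585 genes (4.48%), with a larger value in WT for 511 and a smaller one for 74. Without 1 WT library the count was 137 without LPS replicate 1, 274 without LPS replicate 2, 607 without unstimulated replicate 1 and 222 without unstimulated replicate 2. Of the 958 genes that rose by more than 2-fold in WT, 426 (44.5%) passed it, all with a larger increase in WT, and of the 963 that fell by more than 2-fold, 46 (4.78%) passed it, all with a larger decrease in WT. The genes were chosen by their WT response, which by itself favours a larger value there. Among rising genes Vdr had a log2 fold change of 4.04 in WT and 0.45 in knockout-labelled libraries (difference 3.59, SE 0.34, adjusted p = 0.0065). For Ccnd2 the values were 3.04 and 0.74 (difference 2.31, SE 0.34, adjusted p = 0.014). In 426 of the 426 rising genes that passed, both unstimulated knockout-labelled libraries lay above both unstimulated WT libraries. The test of the difference uses these libraries too, and a higher unstimulated knockout-labelled level by itself enlarges the difference. The choice of genes therefore favoured this separation. The unstimulated knockout-labelled libraries stood at 102 and 61.4 CPM for Vdr, against 5.25 and 4.72 CPM in unstimulated WT libraries, and at 558 and 333 CPM for Ccnd2, against 84.2 and 73.3 CPM. For Il1b they stood at 691 and 454 CPM, against 41.6 and 37.9 CPM in unstimulated WT libraries, and its LPS response had a log2 fold change of 0.11 in knockout-labelled libraries (difference 3.97, SE 0.27, adjusted p = 0.0029). For the ribosomal protein list the median was -0.75 in WT and -0.19 in knockout-labelled libraries, and 0 members passed the test of the difference, which does not show that the responses were alike.

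**Figure D5:**
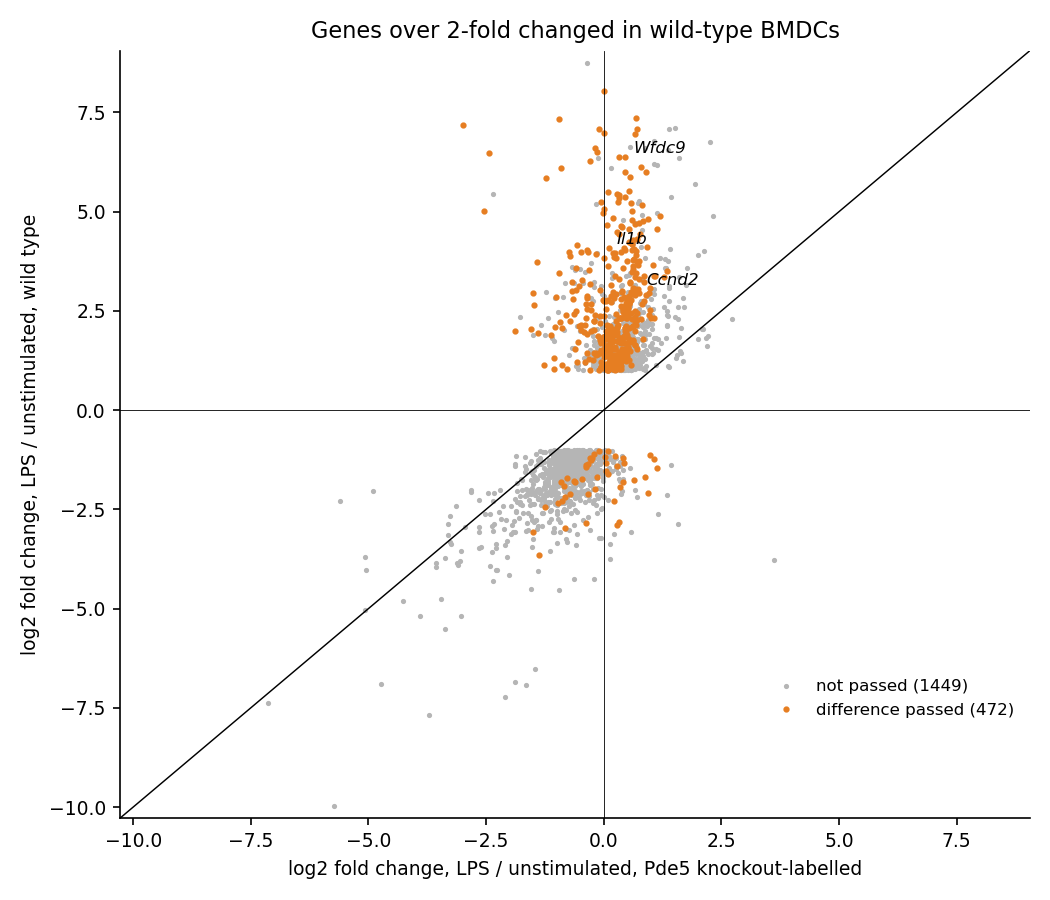
Log2 fold change with LPS in WT BMDCs (y axis) against that in libraries labelled Pde5 knockout (x axis) for the 1921 genes called with a change of more than 2-fold in WT, with the 472 that passed the test of the difference in orange and the others in grey; the line marks equality. Orange points lie above the line among genes that rose in WT and below it among genes that fell, and the genes were chosen on the WT axis.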

How the data were processed

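The authors deposited raw counts by gene symbol for 8 BMDC libraries, made from total RNA prepared with a TruSeq kit, per the labels' protocols. The submitters' processing notes name fastp 0.12.4, HISAT2 2.2.1, featureCounts 2.0.1 and mm10, without role or order. Annotation release, strandedness and multi-mapping rules were not given in the sources used here. The extraction text of the labels speaks of retinas, so RNA extraction from these cells is not described.

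In R 4.3.3, genes were kept by filterByExpr in edgeR 4.0.16 (minimum count 10), libraries were scaled by TMM and all 8 BMDC libraries entered 1 robust glmQLFit with a mean per group. glmQLFTest gave LPS against unstimulated in WT, and the difference of that response between genotype labels, with Benjamini-Hochberg adjustment over all 13072 tested genes and a threshold of 0.05. SE is the log2 fold change divided by the root of F. CPM are counts per 1000000 of the TMM-scaled library size, and floors and counts cover counting error only. Log2 fold changes of genes near 0 counts in 1 group depend on the prior count. On simulated counts 74% of 200 genes changed 2-fold were recovered. Of 12860 genes tested there, a further 18 were called falsely, a larger share of the calls than the threshold of 0.05 aims at.

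The response, the gene lists and the genes to name were chosen with earlier results of these data known. Per list, values are given for up to 3 called members per direction with the largest fold change (average log2 CPM 2 or more) and no overlap between libraries, beside the 10 largest CPM gains and losses, genes switched on and neighbouring runs (4 or more tested genes in 1 direction within 1 Mb). Further list members, and Mir155hg, were chosen after their values were seen. Lists are described by counts and medians, with no set test. Positions and promoters are from RefSeq on GRCm38.p6, the assembly of mm10, to which 31865 of 32190 symbols matched. Of 176 genes with values in the text, 24 overlap another tested gene on either strand and are uncertain to that extent, namely Bcl2a1d, Bcl3, Cad, Cd247, Ctsz, Cxcr5, Cysltr1, Dkc1, F2rl2, Flt3, H2-DMa, Ifit1, Il1b, Itgae, Lpar6, Npc1, Nr1h3, Rpsa, Tbxas1, Wars, Wdfy4, Wfdc9, Zbtb46 and Zc3h12d. A few genes are not reported here. Tumoral DC libraries were not used. Alternatives were RLE, upper-quartile and library-size scaling, 2 other filters on low counts, DESeq2 1.42.0, limma-voom (limma 3.58.1), WT libraries alone, a replicate block, each WT library left out, 1 symbol of each identical set and a threshold of 0.01.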

Additional observations from a re-analysis of the deposited data

Results flagged for a closer look

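The response to LPS differed between WT and Pde5 knockout-labelled BMDCs, by the test of the difference itself (edgeR, adjusted p under 0.05 over all genes), for 585 genes (4.48%). Of these, 77 are among the 176 genes with values in the text. Many of the 176 were named for a large response in WT, which by itself favours a larger response there. Values below are differences of log2 fold changes, WT minus knockout-labelled, so a positive value means a higher response in WT. Among antiviral genes the difference was 2.38 for Gbp2, 3.02 for Gbp5, 4.65 for Ifit1, 4.28 for Isg15, 5.41 for Oas1g, 1.85 for Parp14 and 3.70 for Tgtp1. Among cell death genes the difference was 1.15 for Bcl2l11, 1.96 for Casp4 and 3.64 for Mefv. Among metabolism genes the difference was 0.97 for Acadm, 3.15 for Acod1, -3.17 for Aldoc, 0.97 for Ass1, 3.65 for Hdc, 3.33 for Hp, 7.07 for Nos2, 0.91 for Npc2, 1.55 for Pfkfb3, 4.39 for Ptges and 3.19 for Slc7a2. Among receptor genes the difference was 0.72 for Adora2a, 1.88 for Cxcr5, 1.16 for Gpr132, -1.05 for Ifngr1, 2.19 for Il2ra, -1.41 for Lpar6 and 1.26 for S1pr1. Among secreted protein genes the difference was 4.71 for C1ra, 2.73 for C3, 1.03 for Ccl5, 3.66 for Cxcl10, 2.48 for F10, 3.97 for Il1b, 3.10 for Il1rn, 2.70 for Mmp14, 1.85 for Osm and 2.09 for Tnfsf4. Among sensing genes the difference was 2.62 for Clec4e, 4.36 for Ddx60, 2.59 for Nod1 and 4.19 for Zbp1. Among signalling genes the difference was 1.53 for Bcl3, 1.97 for Cish, 1.60 for Dusp2 and 2.28 for Socs3. Among stress and redox genes the difference was 6.29 for Gstt1, 3.17 for Gstt3 and 2.02 for Sod2. Among surface protein genes the difference was 1.35 for Cd200, -0.95 for Icosl, 3.07 for Ms4a6d and 2.72 for Slamf6. Among transcription factor genes the difference was 2.20 for Batf2, 1.48 for Fosl2 and 3.59 for Vdr. For the remaining genes it was 1.87 for Cd1d1, 0.83 for Zbtb46, 1.13 for Ddt, 7.01 for Fpr2, 2.67 for Helz2, 6.66 for Ifi206, 3.87 for Ifi208, 4.90 for Ifi213, 1.44 for Mir155hg, 3.62 for Wfdc13, 5.92 for Wfdc9, 1.81 for Sema7a, 1.01 for Ifi30, 1.00 for Kdm6b, 0.73 for Cdc42ep3, 0.87 for Marcksl1, 0.89 for Ctsz, 2.18 for Cd247, 3.17 for Fcgr1, 2.31 for Ccnd2 and 0.94 for Cdkn1a. In all 426 genes that rose by more than 2-fold in WT and passed this test, both unstimulated knockout-labelled libraries lay above both unstimulated WT libraries. The unstimulated knockout-labelled level is itself a term of each value, so choosing genes by the test favours this separation. A positive value can come from that level as well as from the levels with LPS. For Ccnd2 the LPS libraries stood at 710 and 775 CPM with the knockout label and at 734 and 565 CPM in WT. How far the unstimulated levels made up each value was not tested.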

How the results depend on the processing

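Without 1 WT library the called genes numbered 2676 to 4100 (with all libraries 4910), the higher ones 1617 to 2232, the lower ones 1059 to 1868, those more than 2-fold higher 762 to 1033, those more than 2-fold lower 611 to 1027 and those with a different response between genotype labels 137 to 607. The lone library of a group was then assumed to vary like the other groups. At a threshold of 0.01 the counts were 2564 called, 1534 higher, 1030 lower, 599 more than 2-fold lower and 75 with a different response. With library size alone 1689 genes were higher, 3728 lower and 1462 more than 2-fold lower. A filter of 10 CPM in 2 libraries left 593 more than 2-fold higher and 631 more than 2-fold lower, with fewer genes tested. The different responses numbered 948 without a filter on low counts and 1075 with DESeq2, and the cause was not tested. DESeq2 called 4464 genes for LPS in WT, limma-voom 4867 and WT libraries alone 4352.

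Same-numbered WT libraries deviated together with a correlation of 0.28 (edgeR log2 CPM, across genes), but nothing in the labels ties the numbers to a shared culture and the other groups gave values of either sign. With a replicate block 4881 genes were called, 2615 higher and 2266 lower, of which 4688 were shared, all in the same direction, and 516 had a different response. Of 441 named genes, 311 kept their direction and side of the threshold in all these fits. Of 48 motif shares in promoters, 36 left their exact 95% binomial interval in the 150 bases before the start, a shorter window, and all 4 counts of neighbouring runs moved by over 1.5 times with a minimum of 5 genes. The direction turned only for 3 genes that passed in no fit. Without 1 WT library the log2 fold change of Id2 ran between -0.24 and 0.084, with 0.035 without LPS replicate 1 and 0.084 without unstimulated replicate 2. That of Cd3e ran between -0.92 and 0.20, with 0.025 without LPS replicate 2 and 0.20 without unstimulated replicate 1. That of Col1a1 ran between -0.030, without unstimulated replicate 2, and 0.56. Il12b passed with DESeq2 (adjusted p = 0.019, log2 fold change 0.60) and without unstimulated replicate 1 (adjusted p = 0.0062, log2 fold change 0.99).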

Other observations

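Hp, the haemoglobin-binding haptoglobin, had 10.3 and 6.83 CPM in the LPS libraries, against 1.93 and 2.53 CPM in the unstimulated ones (log2 fold change 1.94, SE 0.31, adjusted p = 0.0022). Of 24 iron, heme and metal genes 3 rose and 5 fell (with 1 lower without LPS replicate 1 or unstimulated replicate 2 and 2 without LPS replicate 2). Npc2, which hands cholesterol to Npc1 in lysosomes, had 1971 and 1858 CPM in the LPS libraries, against 820.1 and 767 CPM in the unstimulated ones (log2 fold change 1.27, SE 0.15, adjusted p = 5.7e-04). Its partner Npc1 had 122 and 102 CPM in the LPS libraries, against 203 and 202 CPM in the unstimulated ones (log2 fold change -0.85, SE 0.16, adjusted p = 0.0043). Hdc, which makes histamine, had 9.98 and 9.76 CPM in the LPS libraries, against 1.05 and 1.18 CPM in the unstimulated ones (log2 fold change 3.14, SE 0.38, adjusted p = 8.0e-04). Of 28 tricarboxylic acid cycle genes 2 rose and 6 fell (with 1 higher without LPS replicate 1 or unstimulated replicate 1 or 2, and 3 lower without LPS replicate 1 or 2 or unstimulated replicate 2 and 15 with library size alone). Idh2, the mitochondrial NADP-dependent isocitrate dehydrogenase, had 22.0 and 26.0 CPM in the LPS libraries, against 42.9 and 48.6 CPM in the unstimulated ones (log2 fold change -0.93, adjusted p = 0.0037). Of 22 heat shock genes 6 rose and 1 fell (with 3 higher without LPS replicate 1 or unstimulated replicate 1 or with library size alone, and 0 lower without LPS replicate 1 or 2 or unstimulated replicate 2). Of 26 autophagy genes 6 rose and 3 fell (with 1 higher without LPS replicate 1 or unstimulated replicate 2 or with library size alone and 3 without LPS replicate 2, and 1 lower without LPS replicate 1).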
